A study of Mus musculus with 4 samples.

Results

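Genes of DNA methylation and of Trim28-dependent silencing were followed in the liver of microsomic (M) and control (C) mice. They were *Trim28*, *Setdb1*, *Zfp57*, *Cbx5*, *Dnmt1*, *Dnmt3a*, *Dnmt3b*, *Uhrf1*, *Tet2* and *Tet3*, chosen by name, and every probe with one of these names was read. These 10 genes had 20 probes, of 36161 gene names and 55681 probes on the array. Microsomic animals were defined by a birth weight in the lowest part of the range for their sex, and control animals were littermates of near average weight. Whole-liver RNA was hybridized for microsomic and control females (MF and CF) and for microsomic and control males (MM and CM), 1 array per group. The labels give C57BL/6J mice at embryonic day 20 for all groups, without any treatment or altered allele, whereas the methods describe newborn C57BL/6 N mice and 3 replicates per group. Whether an array held RNA of 1 animal or of a pool was not given in the sources used here. With 1 array per group, M and C could be compared in each sex only as a pair of values, with no spread between animals and no p-value for the pair.

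Methylation of cytosine in DNA silences imprinted genes, transposable elements and genes of the germ line. ZFP57 is a zinc finger protein that binds a methylated sequence in imprinting control regions and recruits TRIM28. TRIM28 is a scaffold that brings in SETDB1, which methylates histone H3 at lysine 9, and the heterochromatin protein HP1 alpha, the product of *Cbx5*. UHRF1 recognises DNA that is methylated on a single strand after replication and brings DNMT1, the maintenance methyltransferase, to it. DNMT3A and DNMT3B place methyl groups on unmethylated DNA, and the TET enzymes, among them TET2 and TET3, oxidise methylcytosine, the first step of its removal. The fetal liver is made of hepatocytes and of blood-forming cells, many of which divide.

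Levels are log2 signals relative to the upper quartile (75th percentile) of their own array, so that a level of 0 stands for that percentile, and they were compared only within a probe. The brightest probe stood for a gene, and a difference was counted past 1.5-fold. The detection limit of an array was the lowest level of a probe well above background on it. Where a probe was not well above background on the dimmer array, the difference was taken against that limit or, if higher, the measured level. Against the limit the difference is a bound, and against the measured level it is an uncertain value. Spots of the same probe on 1 array varied so that a difference between arrays had an SD of 0.41 (log2) for MF against CF and of 0.40 for MM against CM, from 399 probes with 10 spots each. This is the error of the spots and does not include the difference between animals. Each of the 20 member probes had a single spot.

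The array as a whole set the background for all that follows. Over all genes, 10447 of 25538 compared, or 40.9%, passed 1.5-fold in MF vs CF, and 10733 of 26315, or 40.8%, did so in MM vs CM. The hepatocyte markers (10 genes, *Alb*, *Afp*, *Ttr* and others) passed the background on each of the 4 arrays, with a summed log2 level of 12.3 on MM and of 12.9 on each of the other arrays. The 11 erythroid markers and the 9 markers of haematopoietic progenitors were also well above background everywhere, with sums from 10.8 (MM) to 11.6 (CF) and from 5.34 (MF) to 5.83 (CF). Of 7 germ cell markers, *Dazl*, *Dppa3* and *Zp3* were not well above background on any array, and the sums ran from -0.88 (CF) to 0.69 (MM). Most of each sum came from *Nanog*, the only one well above background on all 4 arrays. It was at -0.49 on MF, -1.26 on CF, 0.54 on MM and 0.23 on CM, so the sums mainly follow its probe. In a whole organ, fewer cells of a type and less RNA per cell cannot be told apart. The M arrays lay in one column of the slide and the C arrays in another, so the column and the group cannot be told apart, nor can the row and sex.

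Of the 10 genes, 8 could be compared in MF vs CF, and 2 of them passed 1.5-fold, *Trim28* and *Tet3*, both higher in MF. This is 25% of the members compared, against 40.9% of all genes, and against 19.9% of all genes for the higher direction alone. None was lower, against 21.1%. In MM vs CM, 9 were compared and 2 passed, *Tet3* and *Zfp57*, both lower in MM. The second was not well above background on MM. Here 22.2% of the members passed, against 40.8% of all genes and 23.1% for the lower direction alone. With this processing the share of members past 1.5-fold was lower than that of all genes in both sexes. It rests on 8 and 9 members, and the difference from all genes was not tested. The genes compared also include those well above background on 1 array only, as 21883 of the 25538 had both in MF vs CF. In males the count depended on the setting, from 1 to 5 members past the threshold, and at 4 or 5 of 9 compared it was no longer below 40.8%. The share of all genes under those settings was not computed. With the main processing no member passed it in the same direction in both, against 3.19% (higher) and 3.8% (lower) of all genes. Over the 11 member probes that were well above background on all arrays and carried no outlier flag, the median difference was 0.07 (log2) in MF vs CF and -0.06 in MM vs CM. Over all genes, by the brightest probe and with both arrays of the pair well above background, the medians were -0.11 and -0.07. The unit and the filter thus differ from those of the member probes.

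**Figure D1:**
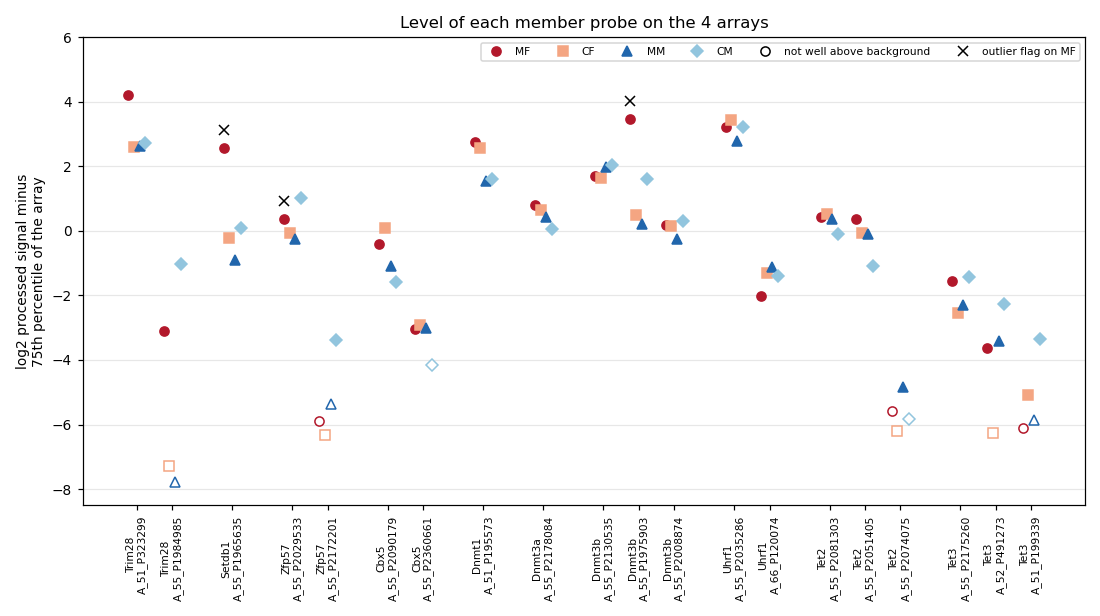
Level of each of the 20 member probes (log2 signal relative to the 75th percentile of its array) on the MF, CF, MM and CM arrays, 1 point per array; open symbols are not well above background and crosses mark probes with an outlier flag on MF. The brightest probes of *Dnmt3a*, *Dnmt3b*, *Uhrf1* and *Tet2* lie close together over the arrays, whereas *Trim28* stands out on MF alone and the 3 probes of *Tet3* are spread.

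*Trim28*, the scaffold of the complex, is given as context for its partners. Its main probe lies at chr7:13615914-13616069 (mm9, plus strand) and spans 156 bases of genome with its 60 bases, so it crosses an interruption of the genomic sequence, such as a splice junction. Its level was 4.2 on MF, 2.61 on CF, 2.64 on MM and 2.72 on CM. Only MF stood apart, and the other 3 arrays lay within the error of a spot. MF exceeded CF by 1.59 (log2), or 3.02-fold, whereas MM and CM differed by -0.08. The other probe with this name was designed on a separate cDNA, 6790 bases away on the opposite strand, and was well above background only on MF, at -3.12, and on CM, at -1.02. Its pattern over the arrays was therefore different, at least 27.9-fold lower in MM than in CM, and it was not used to represent the gene. The sequence of the main probe is shown because it crosses the interruption and so reads joined RNA.
Trim28 main probe: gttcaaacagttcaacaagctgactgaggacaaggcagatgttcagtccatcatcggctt

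*Zfp57*, which brings TRIM28 to imprinting control regions, was lower in MM than in CM. Its brighter probe (chr17:37147515-37147574, mm9) had a level of 0.38 on MF, -0.07 on CF, -0.25 on MM and 1.01 on CM. It carried an outlier flag on MF and was left out of the counts, but the other arrays had no flag, and MM lay 1.26 (log2) below CM there. The dimmer probe (chr17:37147440-37147499) was well above background on CM alone, at -3.38, and gave no comparison between the females. MM lay at -5.35, above the detection limit of its array (-5.83), so the measured level was used. CM was 3.91-fold above it, a difference of -1.97. Both probes thus put CM highest and MM lower by more than 1.5-fold. MM was not well above background on the unflagged probe, so that the size there is uncertain, and it was -0.66 with normexp correction. The first 30 bases of the brighter probe are shown, with capitals marking bases that fall in a window of 5 bases made only of C and T with at least 3 C, a feature used further on.
Zfp57 brighter probe: ttaCCCCCaccccacaaaataaatacaatt

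*Setdb1*, the histone methyltransferase that TRIM28 recruits, had only 1 probe (chr3:95127544-95127603, mm9, minus strand), and that probe was flagged on MF. Its level was 2.58 on MF, -0.22 on CF, -0.90 on MM and 0.10 on CM. The level on MF was the highest by more than 2 log2 units, 2.80 above CF, but it is the level on the flagged spot. Spots with the same flag on MF, which marks uneven pixels within the spot, exceeded CF by a median of 2.06 (log2) over 762 spots of all genes, and 81.8% of them by more than 2-fold. No unflagged measurement of *Setdb1* in MF was thus to be had. Without that array, MM lay 0.999 (log2) below CM, and CF lay near CM. The first 30 bases of the probe contained none of the windows of C and T.
Setdb1 probe: cgattttatttgccctgtgtaatttttaac

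*Cbx5*, which encodes HP1 alpha, was measured by a pair of probes on chromosome 15. The brighter (chr15:103029698-103029757, mm9) read -0.41 on MF, 0.07 on CF, -1.09 on MM and -1.58 on CM. Both females were above both males. MF lay 0.48 (log2) below CF and MM lay 0.49 above CM, neither past 1.5-fold. The dimmer probe (chr15:103027779-103027838) read -3.04 on MF, -3.02 on MM and -2.91 on CF, and was not well above background on CM. There MM exceeded CM by 2.20-fold, against an uncertain level of -4.15 measured on CM, and CM was lowest on both probes. The brighter probe passed 1.5-fold in MM vs CM under 4 of the alternatives, with 0.62 (quantile normalization) to 1.05 (deposited signal), and the mean over both probes was 0.81. With the local median over the position on the array removed it gave 0.92 there and -0.07 in MF vs CF.

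Other genes of this machinery were taken as a list of 32 TRIM28 and HP1 silencing partners. Of these, 31 were compared in MF vs CF, with 3 higher and 6 lower past 1.5-fold and a median of -0.11 (log2, n = 29 with both arrays well above background), equal to the median of all genes. In MM vs CM, 5 were higher and 2 lower of 31, with a median of 0.16 (n = 30) against -0.07 over all genes. Past 1.5-fold were thus 29.0% of the list in females and 22.6% in males, against 40.9% and 40.8% of all genes. The histone H3 lysine 9 methyltransferases of the list went different ways. *Setdb2* was at 1.36 on MF, 3.63 on CF, 2.22 on MM and 1.08 on CM, so it was lower in MF by 2.27 and higher in MM by 1.14. *Suv39h2* showed the opposite, higher in MF by 1.20 and lower in MM by 0.95. Its level was 7.58 on MF, 6.38 on CF, 3.57 on MM and 4.52 on CM. *Ehmt1* was higher in MF by 1.51, with MM and CM 0.20 apart. Its level was 8.43 on MF, 6.91 on CF, 4.34 on MM and 4.14 on CM. On both of these probes the females lay far above the males, and what the probes read was not tested. *Zfp809*, a zinc finger protein that directs TRIM28 to retroviral sequence, was 1.15 lower in MF and 1.54 higher in MM. *Cbx1*, which encodes HP1 beta, was 1.05 lower in MF. *Fam208a* (TASOR, a subunit of the HUSH silencing complex) was 1.17 higher in MM, and the remodeller *Chd3* was 0.62 lower. No gene of this list passed 1.5-fold in the same direction in both sexes.

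Among the maintenance genes, *Dnmt1* had a single probe (chr9:20711973-20712341, mm9, minus strand), which spans 369 bases of genome and so crosses an interruption as well. Its level was 2.75 on MF, 2.55 on CF, 1.56 on MM and 1.62 on CM. MF and CF were 0.20 (log2) apart and MM and CM were -0.06 apart, both less than the spot error. Both females lay about 1 log2 unit above both males, as CM lay 0.93 below CF and MM lay 1.20 below MF. No M against C difference was thus detectable for *Dnmt1* at this precision. It passed 1.5-fold narrowly with the deposited signal in females (0.60) and with normexp correction in males (0.59).
Dnmt1 probe: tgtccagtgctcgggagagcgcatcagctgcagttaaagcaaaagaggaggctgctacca

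*Uhrf1*, the partner that recruits DNMT1, was read by 2 probes that disagreed. The brighter (chr17:56462770-56462829, mm9) gave 3.22 on MF, 3.44 on CF, 2.78 on MM and 3.21 on CM, with M below C by 0.22 (log2) in females and 0.43 in males. The probe at chr17:56451668-56452321, which spans 654 bases of genome, gave -2.02 on MF, -1.31 on CF, -1.12 on MM and -1.41 on CM. On it MF was lowest, 1.63-fold below CF, and MM was 0.29 above CM. In males the probes thus differed in sign, and each was within 1.5-fold. With normexp background correction the brighter probe gave -1.45 in MM vs CM, and with the deposited signal it gave 0.12, so the sign in males depended on the scaling. The sequence of the probe across the interruption is shown, since it differs in kind from the brighter one. Its capitals mark a single window of C and T.
Uhrf1 second probe: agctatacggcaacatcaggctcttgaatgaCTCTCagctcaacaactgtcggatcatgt

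Of 22 genes of methylation maintenance, its readers and cofactors, 20 were compared in each sex. In each sex 30% of these passed 1.5-fold, against 40.9% of all genes in females and 40.8% in males. Between the females, 1 was higher in MF (*Ahcyl2*, 1.20) and 5 were lower, among them *Mat2b*, the regulatory subunit of the enzyme that makes S-adenosylmethionine (-0.89), *Ahcyl1* (-0.80) and the methyl-CpG binding protein *Mbd1* (-0.66). The list median was -0.17 against -0.11 over all genes. In MM vs CM, 5 were higher and 1 was lower, with a median of 0.05 against -0.07. *Hells*, a chromatin remodeller needed for normal DNA methylation, was at 0.20 on MF, 0.77 on CF, 1.67 on MM and 0.55 on CM, so MM stood above the rest. *Zbtb33*, which encodes a reader of methylated DNA, was 0.82 higher in MM, whereas *Zbtb4* was 1.16 lower. Since *Dnmt1* and *Uhrf1* act at replication, 25 genes of DNA replication were set beside them. Females had 2 higher and 4 lower of 24, with a median of -0.26 (n = 23), and in MM vs CM 2 were higher and 2 lower, with a median of 0.07. The replication genes past 1.5-fold were thus 25% in females and 16.7% in males, also below the shares of all genes. *Gins1*, *Rrm2* and *Rfc4* were lower in MF by 1.32, 1.01 and 0.78, and *Tyms*, thymidylate synthase, was lower in both sexes, by 0.69 and 0.64. Both list medians in females lay below the -0.11 of all genes, and the part of the replication genes in the levels of *Dnmt1* and *Uhrf1* was not tested.

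The de novo methyltransferases differed little between the arrays on their brightest unflagged probes. *Dnmt3a* had a single probe (chr12:3914320-3914379, mm9) at 0.79 on MF, 0.64 on CF, 0.42 on MM and 0.05 on CM. CM was lowest, and M exceeded C by 0.15 (log2) in females and 0.37 in males, within 1.5-fold and within the spot error. In males it was 0.61 with median centring and 0.93 with the deposited signal. *Dnmt3b* was read by 3 probes within 1365 bases on chromosome 2. The brightest without a flag (chr2:153513403-153513462) gave 1.70 on MF, 1.63 on CF, 1.98 on MM and 2.04 on CM, differences of 0.07 and -0.06. The other unflagged probe (chr2:153512991-153513050) gave 0.18 on MF, 0.16 on CF, -0.25 on MM and 0.31 on CM, differences of 0.02 and -0.56. In females both put M and C within 0.07 of each other.

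The remaining *Dnmt3b* probe (chr2:153512098-153512157) was flagged on MF and gave another picture. It read 3.46 on MF, 0.49 on CF, 0.20 on MM and 1.61 on CM. MF exceeded CF by 2.97 (log2) on the flagged spot, where its neighbours showed no difference, and MM lay 1.41 below CM, both arrays being unflagged. The first 30 bases of the 3 probes are set side by side, since they differ in the windows of C and T, shown in capitals.
Dnmt3b brightest unflagged probe: gtgcaaagatgacagatgcccagagtttac
Dnmt3b other unflagged probe: tcaggTCCCCagaaCCCCCTagtTCCTCat
Dnmt3b flagged probe: tgtttgCCCCCTTgaaggaccactttgcct
Over their whole length these probes held 0, 4 and 3 windows. Over all probes well above background on both arrays, the median MM minus CM difference was 0.03 (log2) with no such window, -0.15 with 1 to 3, -0.40 with 4 to 7 and -0.76 with 8 or more. In MF vs CF the corresponding medians were -0.15, -0.14, -0.09 and 0.02. Probes with 4 or more windows were 10.9% of the probes in MF vs CF and 11.4% in MM vs CM. The *Dnmt3b* probe without a window showed no difference in males, and the probes with 3 and 4 windows were lower in MM. The part of the windows in these differences was not tested for the single probes.

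**Figure D2:**
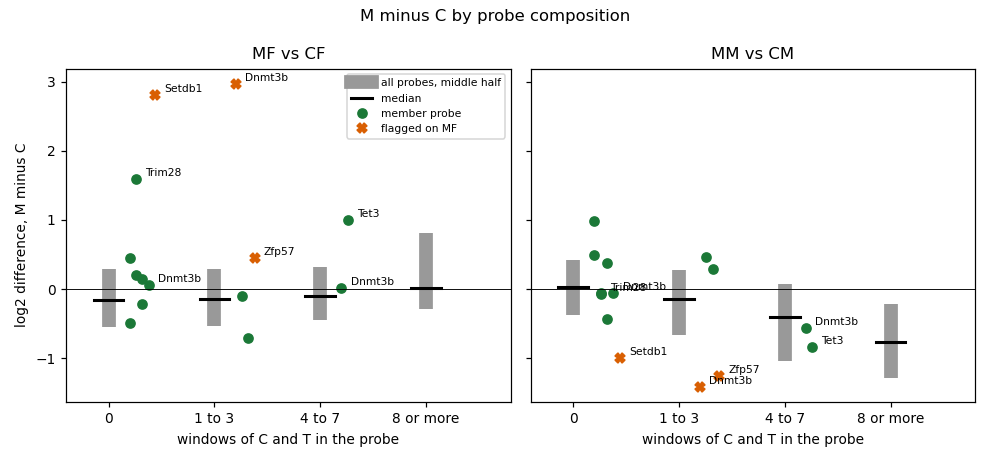
Difference M minus C (log2) in females and in males against the number of windows of C and T in the probe; bars span the range from the 25th to the 75th percentile of all probes well above background on both arrays, lines are their medians and points are member probes well above background on all 4 arrays. In MM vs CM the medians run from 0.03 without a window to -0.76 with 8 or more, and the *Tet3* probe and a *Dnmt3b* probe lie in the class of 4 to 7.

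*Tet3* was the only member compared that passed 1.5-fold in both sexes, in opposite directions. All its probes lie on chromosome 6, minus strand, and their sequences are given with the windows of C and T in capitals, of which they hold 6, 2 and 0.
Tet3 probe with 6 windows: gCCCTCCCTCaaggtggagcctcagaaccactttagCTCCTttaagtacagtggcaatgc
Tet3 probe with 2 windows: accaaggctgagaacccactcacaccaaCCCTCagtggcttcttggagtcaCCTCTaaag
Tet3 probe without a window: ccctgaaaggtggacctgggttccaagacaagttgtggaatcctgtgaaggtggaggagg
The probe with 6 windows (chr6:83319720-83319779) was the brightest, at -1.55 on MF, -2.54 on CF, -2.29 on MM and -1.44 on CM. MF and CM were high and MM and CF low. MF exceeded CF 1.99-fold, a log2 difference of 0.996, and MM lay 0.84 below CM, 1.79-fold. Over all genes compared in both sexes, 5.81% were past 1.5-fold upwards in females and downwards in males, and 1 of the 8 members compared in both was. The reverse, lower in MF with higher in MM, held for 4.04% of genes and for 0 members. The second, with 2 windows (chr6:83352743-83352802), was at -3.64 on MF, -3.42 on MM and -2.26 on CM and not well above background on CF. It went the same way, with MF at least 3.57-fold above CF and MM 2.23-fold below CM. The third, without a window (chr6:83318731-83318790), was well above background on the C arrays only, at -5.08 on CF and -3.34 on CM. There MM was at least 5.61-fold below CM, and MF at least 1.93-fold below CF, so the direction in females was opposite to that of the other probes.

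In males all 3 *Tet3* probes were lower in MM. On the one without a window this is a bound, as MM was not well above background there. The part of the windows in these differences was not tested. The size for the brightest probe depended on the processing. It was -0.41 (log2) with the trend over the windows removed, -0.42 with normexp correction followed by quantile normalization and -0.28 with the deposited signal, each within 1.5-fold. In females the gene stayed past 1.5-fold under every alternative run at that threshold, from 0.60 to 1.84, the latter a bound from the second probe. The difference between the sexes was not tested, since there was 1 array for each.

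*Tet2* showed no such pattern. Its brightest probe (chr3:133126751-133126810, mm9, minus strand) was at 0.44 on MF, 0.53 on CF, 0.37 on MM and -0.09 on CM, with differences of -0.09 in females and 0.47 in males. A second probe 154 bases from it (chr3:133126905-133126964) was at 0.37 on MF, -0.08 on CF, -0.10 on MM and -1.08 on CM. Both put CM lowest. On the second probe MM exceeded CM by 0.98 (log2), or 1.98-fold, past the threshold, whereas the brightest stayed within it, and reached 0.68 to 1.03 under 3 of the alternatives. Another probe (chr3:133176421-133176479), designed on a separate cDNA, was well above background on MM alone, at -4.85, below the limit on CM, and gave no fold.

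**Figure D3:**
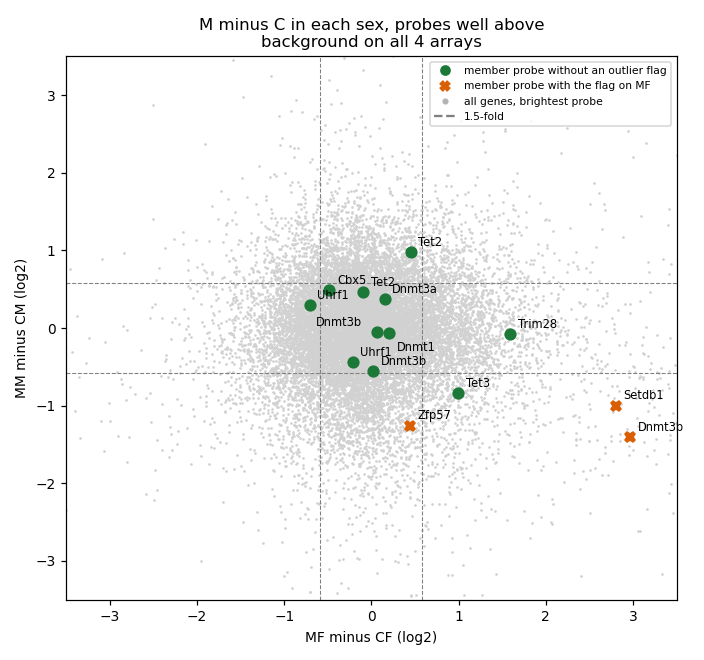
Difference MF minus CF against MM minus CM (both log2) for the brightest probe of each gene (grey) and for all member probes well above background on the 4 arrays; crosses carry the outlier flag on MF and dashed lines mark 1.5-fold, and points beyond the axes are not drawn. *Trim28* and *Tet3* lie to the right at 1.59 and 0.996, and most other unflagged member probes lie within the lines.

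The list of DNA demethylation and repair held 18 genes. Among females, 5 were higher and 3 lower of 18, with a median of -0.18 (log2, n = 16) against -0.11 over all genes, and in MM vs CM 3 were higher and 2 lower of 16, with a median of 0.05. Past 1.5-fold were thus 44.4% of the list in females and 31.25% in males, against 40.9% and 40.8% of all genes. *Tet1*, the remaining TET enzyme, was at -1.73 on MF, -2.98 on CF, -1.82 on MM and -1.69 on CM. CF was the low array, as for the first *Tet3* probe, and MF exceeded it by 1.25, while the males differed by -0.13. The GADD45 proteins have been linked to active demethylation. *Gadd45g* was 1.80 higher in MF, whereas MM was 1.47 below CM, and *Gadd45b* was lower in both sexes, by 0.79 and 1.76. *Neil3*, a DNA glycosylase, was 1.81 lower in MF. *Idh1* and *Idh2* make the oxoglutarate that TET enzymes consume. *Idh1* was 0.76 higher in MF and *Idh2* was 1.22 higher in MM.

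Genes under the control of this machinery were taken as a list of 27 imprinted genes of regions bound by ZFP57 and TRIM28. In MF vs CF, 5 were higher and 2 lower of 24 compared, with a median of 0.16 (log2, n = 23), and in MM vs CM 4 were higher and 7 lower, with a median of -0.03 (n = 22). Past 1.5-fold were thus 29.2% of the list in females and 45.8% in males, against 40.9% and 40.8% of all genes. *Igf2*, the fetal growth factor, was at 5.13 on MF, 3.24 on CF, 5.28 on MM and 6.11 on CM. CF was low and CM high, so M was 1.89 above C in females and 0.82 below it in males. The *Igf2* probe held 4 windows of C and T, and their part in these values was not tested. *H19*, which shares its control region, differed by -0.09 and by less than 0.01. *Cdkn1c*, an inhibitor of cell division, was 1.95 higher in MF and 0.69 lower in MM. *Dlk1* was 0.97 higher in MF and its neighbour *Meg3* was 1.85 lower in MM. *Peg3* was at 1.56 on MF, 2.42 on CF, 1.12 on MM and 2.38 on CM. It was lower in M in both sexes, by 0.87 and 1.26, without overlap between M and C. Such an order, with both C arrays above both M arrays, held for 16.5% of 19303 genes. *Zim1*, from the same cluster, was also lower in M in both sexes, by 0.83 and 0.93. Over all genes, 3.8% were lower past 1.5-fold in both sexes. *Snrpn* and *Kcnq1ot1* were 0.76 and 0.86 higher in MM.

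Germline genes are silenced by promoter methylation in other tissues, and 8 of the 18 on the list were not well above background on any array. Only 7 could be compared in MF vs CF (2 higher, 2 lower) and 8 in MM vs CM (2 higher, 2 lower). Past 1.5-fold were thus 57.1% and 50% of them, against 40.9% and 40.8% of all genes. Several were not well above background on the dimmer array, so a median over them has little meaning. *Tex101* was at -0.94 on CM, -3.62 on CF and -5.23 on MM, 4.29 lower in MM than in CM, and not well above background on MF. The level measured on MF lay 0.997 below CF, an uncertain value. *Piwil2* was 1.98 lower in MM. *Tdrkh* and *Brdt* were higher in MF by 0.76 and 0.63. In MM they were higher by 1.08, an uncertain value, and by at least 1.04, as CM was not well above background. Over all genes, 3.19% were higher and 3.8% lower past 1.5-fold in both sexes.

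**Figure D4:**
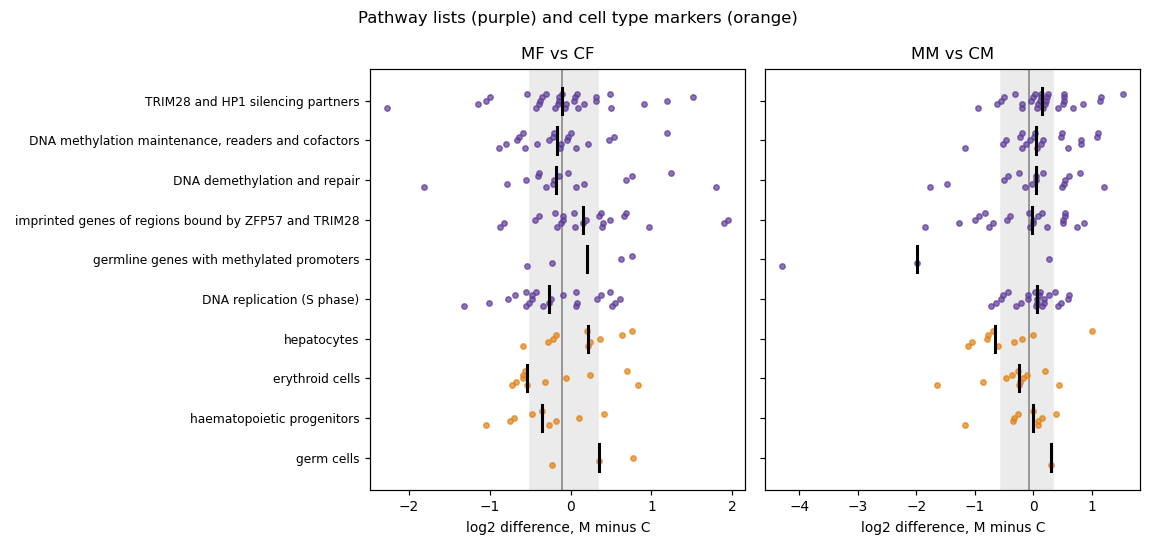
Difference M minus C (log2) of the genes of 6 pathway lists (purple) and 4 marker lists (orange) with both arrays well above background, 1 point per gene, black bars at the list medians; the grey line and band are the median and the range from the 25th to the 75th percentile of all genes. Most list medians lie within the band, except for hepatocyte markers and germline genes in males and erythroid and germ cell markers in females.

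The cell type markers moved as well, and their part in the results above was not tested. In MM vs CM, 6 of 10 hepatocyte markers were lower past 1.5-fold and 1 higher, 70% of them against 40.8% of all genes, with a median of -0.64 (log2). The median was -0.02 with quantile normalization and -0.12 with normexp correction, so it depended on the scaling of the brightest probes. The females had 2 higher and 1 lower, 30% against 40.9% of all genes, with a median of 0.21, which became -0.36 with quantile normalization. The erythroid markers had medians of -0.54 in females and -0.24 in males, and the haematopoietic progenitors had -0.36 and -0.01.

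When both sexes were fitted together by limma, with terms for M against C and for sex and 1 residual degree of freedom, none of the 8 members that could be fitted was called as different between M and C. Their adjusted p-values ran from 0.995 to 1, and 0 had an unadjusted p under 0.05, the smallest being 0.180. Over all 19303 genes tested, 0 were called (0%) and 4.42% had an unadjusted p under 0.05, so the fit called nothing anywhere. The log2 difference M minus C was 0.76 ± 0.51 (SE, adjusted p = 0.995) for *Trim28*, the largest of the members. It was 0.00 for *Cbx5* and *Dnmt3b*, 0.07 for *Dnmt1*, 0.08 for *Tet3*, 0.19 for *Tet2*, 0.26 for *Dnmt3a* and -0.32 for *Uhrf1*. No member had both M arrays above both C arrays or the reverse, against 11.6% and 16.5% of the genes.

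More of the members were ordered by sex. In 5 of 8, namely *Cbx5*, *Dnmt1*, *Dnmt3a*, *Uhrf1* and *Tet2*, both female arrays lay above both male arrays, against 19.5% of all genes, and *Dnmt3b* had both males above both females, against 23.5%. These are the brightest probes. The second unflagged probes of *Cbx5* and *Uhrf1* did not keep the order, with MM above MF on both. The other unflagged probe of *Dnmt3b* did not keep its reverse order either, with MM lowest at -0.25. On the brightest probes, the nearest female and male arrays often lay within the error of a spot. This was so for *Uhrf1* (MF 3.22, CM 3.21), *Tet2* (MF 0.44, MM 0.37) and *Dnmt3a* (CF 0.64, MM 0.42). It was also so for *Dnmt3b* in its reverse order (MF 1.70, MM 1.98). Centring on the median of an array gave a count of 6 (37% of all genes), and it was 4 with quantile normalization (19.8%), 4 with normexp correction (21.8%) and 3 with the deposited signal (13%). *Cbx5* and *Dnmt1* were among them under every one of these scalings. The fitted difference males minus females was -1.17 ± 0.45 (SE) for *Cbx5* and -1.07 ± 0.41 for *Dnmt1*, with limma adjusted p-values of 0.510 and 0.514, so neither was called, and 0 of all genes were. Their unadjusted p-values of 0.0335 and 0.0351 put 2 of 8 members under 0.05, against 9.36% of all genes. Since the females lay in one row of the slide and the males in another, row and sex cannot be told apart.

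Finally, the 8 members were compared by the shape of their levels over the 4 arrays, as the root mean square distance of log2 levels centred on the mean of each gene. *Dnmt3a* and *Tet2* were the closest pair, at 0.12, below the error of a spot. *Cbx5* and *Dnmt1* were next, at 0.31, and *Uhrf1* was nearest to *Dnmt3a*, at 0.32. *Dnmt3b* was nearest to *Uhrf1* (0.38) and *Tet3* to *Dnmt3b* (0.44). *Trim28* had the most distant nearest member, *Dnmt1* at 0.52, and the widest distance was that between *Cbx5* and *Tet3*, 0.97. These distances describe 4 arrays that share a slide and carry no p-value.

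**Figure D5:**
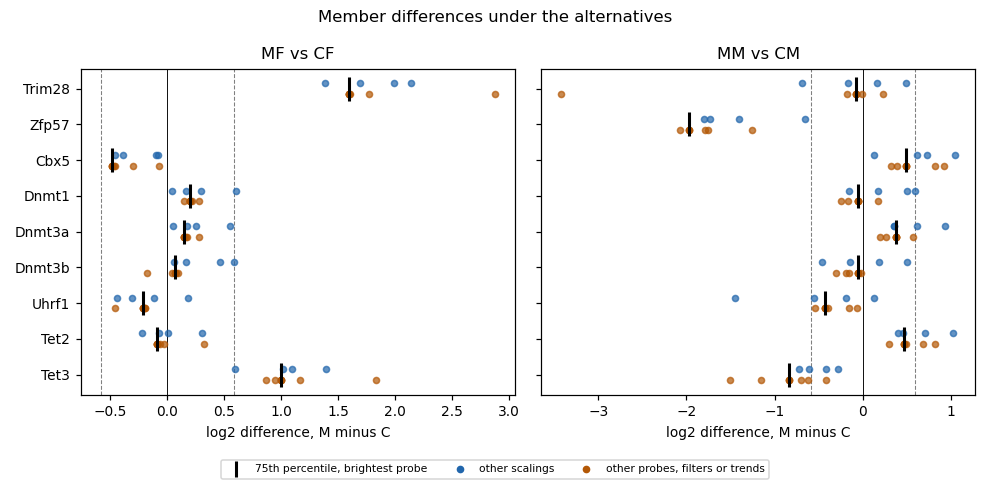
Difference M minus C (log2) of the 9 members compared, under the main processing (black bars), other scalings (blue) and other choices of probe, filter or trend (orange); dashed lines mark 1.5-fold. *Trim28* and *Tet3* stay past the line in MF vs CF, whereas in MM vs CM every member but *Zfp57* crosses 0 or a line under some setting.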

How the data were processed

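Cy3-labelled total RNA from the liver of 4 samples was read on Agilent mouse 1-colour expression arrays, 1 per group, all on one slide. Scans were quantified by the authors with Feature Extraction (10.7.3.1), and the deposited processed signal is a background-subtracted intensity on a linear scale, without normalization between arrays. Here its log2 was taken relative to the 75th percentile over non-control spots, array by array. The percentile was 893 (MF), 925 (MM), 676 (CF) and 628 (CM), and 63.7, 65.3, 57.7 and 56.1% of spots were well above background. Signal over background, and the number of arrays, limit the precision. Outlier flags on 1 or more arrays removed 1754 spots. Members and lists were chosen with earlier results of these data known. Genes named from a list are at most the 3 largest rises and 3 largest falls per comparison past 1.5-fold, plus those past it the same way in both sexes; *H19* was named after its values were seen, and some genes under this rule are not reported here. All 10 members and 179 of 179 list names were matched, 2 through a synonym. limma (3.58.1, R 4.3.3) was fitted over 19303 genes with Benjamini-Hochberg adjustment at 0.05. It was also run on simulated data without a sex effect and with the same shift on both M arrays. That run does not cover changes opposite in the sexes. The array annotation gives probe positions on mm9, and exons and UTRs of that build were not used here. Alternatives covered scaling, background correction (normexp, offset 50), probe choice, filters, fold threshold, position, GC content and C and T windows.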

Additional observations from a re-analysis of the deposited data

Results flagged for a closer look

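*Tet3* was singled out because its M and C arrays differed in opposite directions in the sexes. The brightest probe differed by 0.996 (log2) in MF minus CF and by -0.84 in MM minus CM. This difference between the sexes was not tested, as each group had 1 array. The second probe went the same way as the brightest in each sex. The third was lower in M in both, as a bound in each, since neither MF nor MM was well above background there. In females the signals were near the floor on both arrays.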

How the results depend on the processing

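In MF vs CF, the 2 members past 1.5-fold, both higher, were 2 or 3 under every alternative at that threshold, 3 with normexp correction (*Dnmt3b* added), the deposited signal (*Dnmt1*) and flagged spots kept (*Setdb1*). A 2-fold threshold left 1 (*Trim28*). In MM vs CM, the count of 2 became 5 with median centring or the mean over probes, 4 with normexp correction and quantile normalization, with the deposited signal and with the local median by position removed, and 1 with both arrays required well above background, a 2-fold threshold or the trend over C and T windows removed, the last chosen after seeing the data. The count was 3 with quantile normalization and with flagged spots kept. Of the members past the threshold, those higher in MM, 0 in the main processing, were 3 with median centring and the deposited signal, 2 with the probe mean and by position, and 1 with quantile normalization and with normexp. Those lower fell from 2 to 1 with the deposited signal, both arrays above background, 2-fold and the C and T trend. They rose to 3 with normexp, the probe mean and flagged spots kept, the last with 10 compared and *Setdb1* added. The members with both females above both males were 5, and 3 with the deposited signal, an alternative chosen after seeing the data. Median centring raised the median difference of all genes by 0.24 (log2) in males, and the deposited signal by 0.40 in females and 0.56 in males, so counts there are relative to these shifts. Otherwise the cause was not tested. limma called 0 of 8 members under every setting. *Trim28* in MM vs CM was -0.69 with normexp, 0.48 with the deposited signal and -3.42 with the probe mean, which takes in its other probe at the signal measured on MM, not well above background. No paired analysis was possible because each group had 1 array and the labels carry no replicate numbers. Of the 20 probes, 6 were not well above background on every array, which allows a bound, an uncertain value or no fold where the dimmer array is concerned.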
